A study of Mus musculus with 23 samples.

Results

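Depp1, Prxl2a, Aspa, Cmbl and Tmem158 were chosen from these counts as genes with high values in pancreatic ductal adenocarcinoma (PDAC) cells grown as a 2D monolayer. They are 5 of the 27207 genes of the count table, and all 5 passed the filter on low counts, which left 11144 tested genes. The data did not bear out the name of the set for 1 of them: the levels of Depp1 in 2D culture overlapped those in organoids grown in Matrigel, whose mean was the higher. Because the choice used the 2D values, levels in 2D are described below without a test, and tests are given for differences between organoid groups.

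Bulk RNA sequencing covered 23 libraries in 6 groups. KC cells came from a tumor of 1 mouse that carried Ptf1a Cre/+ and an activated oncogene and were grown in 2D (n = 6), in Matrigel for 13 days (n = 3), in floating collagen gels for 7 days (n = 3), and in floating collagen for 13 days in a first batch (n = 5) and a second batch (n = 3). KPC cells came from 1 mouse that carried Pdx1 Cre/+, the same oncogene and a floxed tumor suppressor and were grown in floating collagen for 13 days in the second batch (n = 3). Every other group belonged to the first batch, the batch being a name in the sample labels. All groups therefore carried the oncogene, and Ptf1a and Pdx1 drive Cre in the early pancreas. With 1 mouse per genotype, the genotype, the Cre driver and the cell line cannot be told apart. Organoids were freed from their gel with collagenase before lysis and monolayers were not, so that dimension and digestion cannot be told apart either. The labels only number the replicates, while the study's legends call those of Matrigel, day 7 and the first batch of day 13 separate experiments. For 2D and the second batch the sources used here do not say so, so p-values there may not reflect separate cultures. They rest on the spread between replicate libraries, pooled over all 6 groups in 1 fit. That spread includes a difference between sets of 2D libraries that is described below.

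The 5 genes have little in common by textbook knowledge. Depp1 is induced by progesterone in the decidua and by FOXO transcription factors, which act when insulin signaling is low, and it has been linked to autophagy. Prxl2a encodes a peroxiredoxin-like protein with a redox-active site. Aspa encodes aspartoacylase, which splits N-acetylaspartate into aspartate and acetate and is best known from oligodendrocytes. Cmbl encodes a cysteine hydrolase that opens ester prodrugs in liver and intestine, and Tmem158, also called RIS1, is a membrane protein first described as induced by oncogenic Ras in senescent fibroblasts.

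The genes lie on 5 chromosomes (GRCm38, positions from GENCODE M21). Depp1 occupies chr6:116650609-116652794 on the plus strand and lies inside Rassf4, which is on the opposite strand, without overlap of exons. Prxl2a, listed there under its older symbol Fam213a, occupies chr14:40993740-41013788 on the minus strand. Aspa occupies chr11:73304992-73329596 on the minus strand, and Cmbl chr15:31565389-31590119 on the plus strand. Tmem158 occupies chr9:123259053-123260764 on the minus strand. Apart from Depp1, none of the 5 overlapped another annotated gene.

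RefSeq promoter windows (GRCm38.p6) were matched for 4 of the 5 genes, Tmem158 being the other. The stretches below lie upstream of the RefSeq start and end before any annotated exon base within the window. They are shown because all 4 genes were lowest among KC groups in collagen at day 7, and Depp1 is a known FOXO-induced gene. The RefSeq starts of Depp1, Aspa and Cmbl lie inside the genes as GENCODE M21 draws them, downstream of the annotated gene start. Capitals mark every match, on either strand, to a motif that is spelled out after the sequences.
Depp1, chr6:116650434-116650608, plus strand: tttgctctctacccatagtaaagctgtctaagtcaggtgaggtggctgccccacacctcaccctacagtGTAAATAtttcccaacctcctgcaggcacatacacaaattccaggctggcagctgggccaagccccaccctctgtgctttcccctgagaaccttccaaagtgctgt
Prxl2a, chr14:41013834-41014083, minus strand: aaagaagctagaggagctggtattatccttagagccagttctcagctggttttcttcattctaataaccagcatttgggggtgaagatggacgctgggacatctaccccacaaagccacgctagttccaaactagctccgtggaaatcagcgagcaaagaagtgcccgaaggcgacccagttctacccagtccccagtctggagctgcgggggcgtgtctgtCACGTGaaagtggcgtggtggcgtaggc
Aspa, chr11:73324638-73324887, minus strand: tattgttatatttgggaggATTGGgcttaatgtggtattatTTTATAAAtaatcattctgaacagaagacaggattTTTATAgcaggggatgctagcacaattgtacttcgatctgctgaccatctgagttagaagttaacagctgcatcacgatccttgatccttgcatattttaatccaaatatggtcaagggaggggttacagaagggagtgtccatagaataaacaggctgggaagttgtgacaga
Cmbl, chr15:31568583-31568790, plus strand: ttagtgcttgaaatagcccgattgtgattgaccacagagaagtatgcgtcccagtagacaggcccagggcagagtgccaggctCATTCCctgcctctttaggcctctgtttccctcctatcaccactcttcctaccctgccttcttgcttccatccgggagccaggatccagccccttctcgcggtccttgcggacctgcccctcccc

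Motif letters were searched on both strands in the 250 bases before each start. The 4 genes held different letters, apart from a CCAAT box found in windows of both Aspa and Prxl2a. Depp1 held the FOXO letters GTAAATA at bases -181 to -175 from the RefSeq start, and 5.76% of all 32817 windows held this form or GTAAACA. Prxl2a held the E-box CACGTG at -28 to -23 of the first of its 5 RefSeq windows, and so in the overlapping second one, as did 6.02% of windows. Aspa held TATA box letters, TATAAA, in 3 matches of which 2 overlap, as did 12.4% of windows. It also held a CCAAT box, spelled by its name and found in 33.8% of windows. Cmbl held the TEAD letters GGAATG, on the other strand, at -167 to -162 and again nearer the start, where the window runs into an annotated exon. They occurred in 12.6% of windows. In 2 other windows of Prxl2a, at a start inside the gene, the AP-1 letters TGACTCA (4.46% of windows), a CCAAT box and the antioxidant response element TGACNNNGC (10.2% of windows) were found. No window of the 4 genes held the GC box GGGCGG (32.7% of windows) or the HNF1 motif (0.00914% of windows). A match is a run of letters and does not show a bound site.

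The libraries held between 1221451 and 2471058 counted molecules, with a median of 1845921. The 7 markers of ductal and tumor epithelium summed to between 7161 and 13992 CPM in every library. CPM are counts brought to a common total, where a library's total was first multiplied by its TMM factor, a scaling that sets most genes equal between libraries. Endothelial markers summed to at most 2.00 CPM, with Kdr at 0 in all groups, and acinar markers to at most 20.4 CPM. The 6 fibroblast markers summed to 40.8 to 129.9 CPM in 2D and to 25.9 to 69.0 CPM in the organoid libraries, with Lum at 0 in 3 of the organoid groups, and their part in the 2D levels of the 5 genes was not tested. The titles of the 2D libraries run from 14A to 14F without a break. By their counts these libraries fell into 2 sets of 3, 14A to 14C and 14D to 14F, which no label explains. Libraries 14A to 14C held 1221451 to 1382736 molecules, with 21.1 to 22.0% from ribosomal protein genes, 4.99 to 5.76% from mitochondrial transcripts and TMM factors of 0.738 to 0.772. Libraries 14D to 14F held 1649327 to 2091391 molecules, with 11.4 to 12.5% from ribosomal protein genes, 2.51 to 3.01% from mitochondrial transcripts and TMM factors of 1.04 to 1.06. In the organoid libraries ribosomal protein genes took 5.97 to 11.4% of counts. Because the difference between the sets moves values in 2D, each level is given for both sets.

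**Figure D1:**
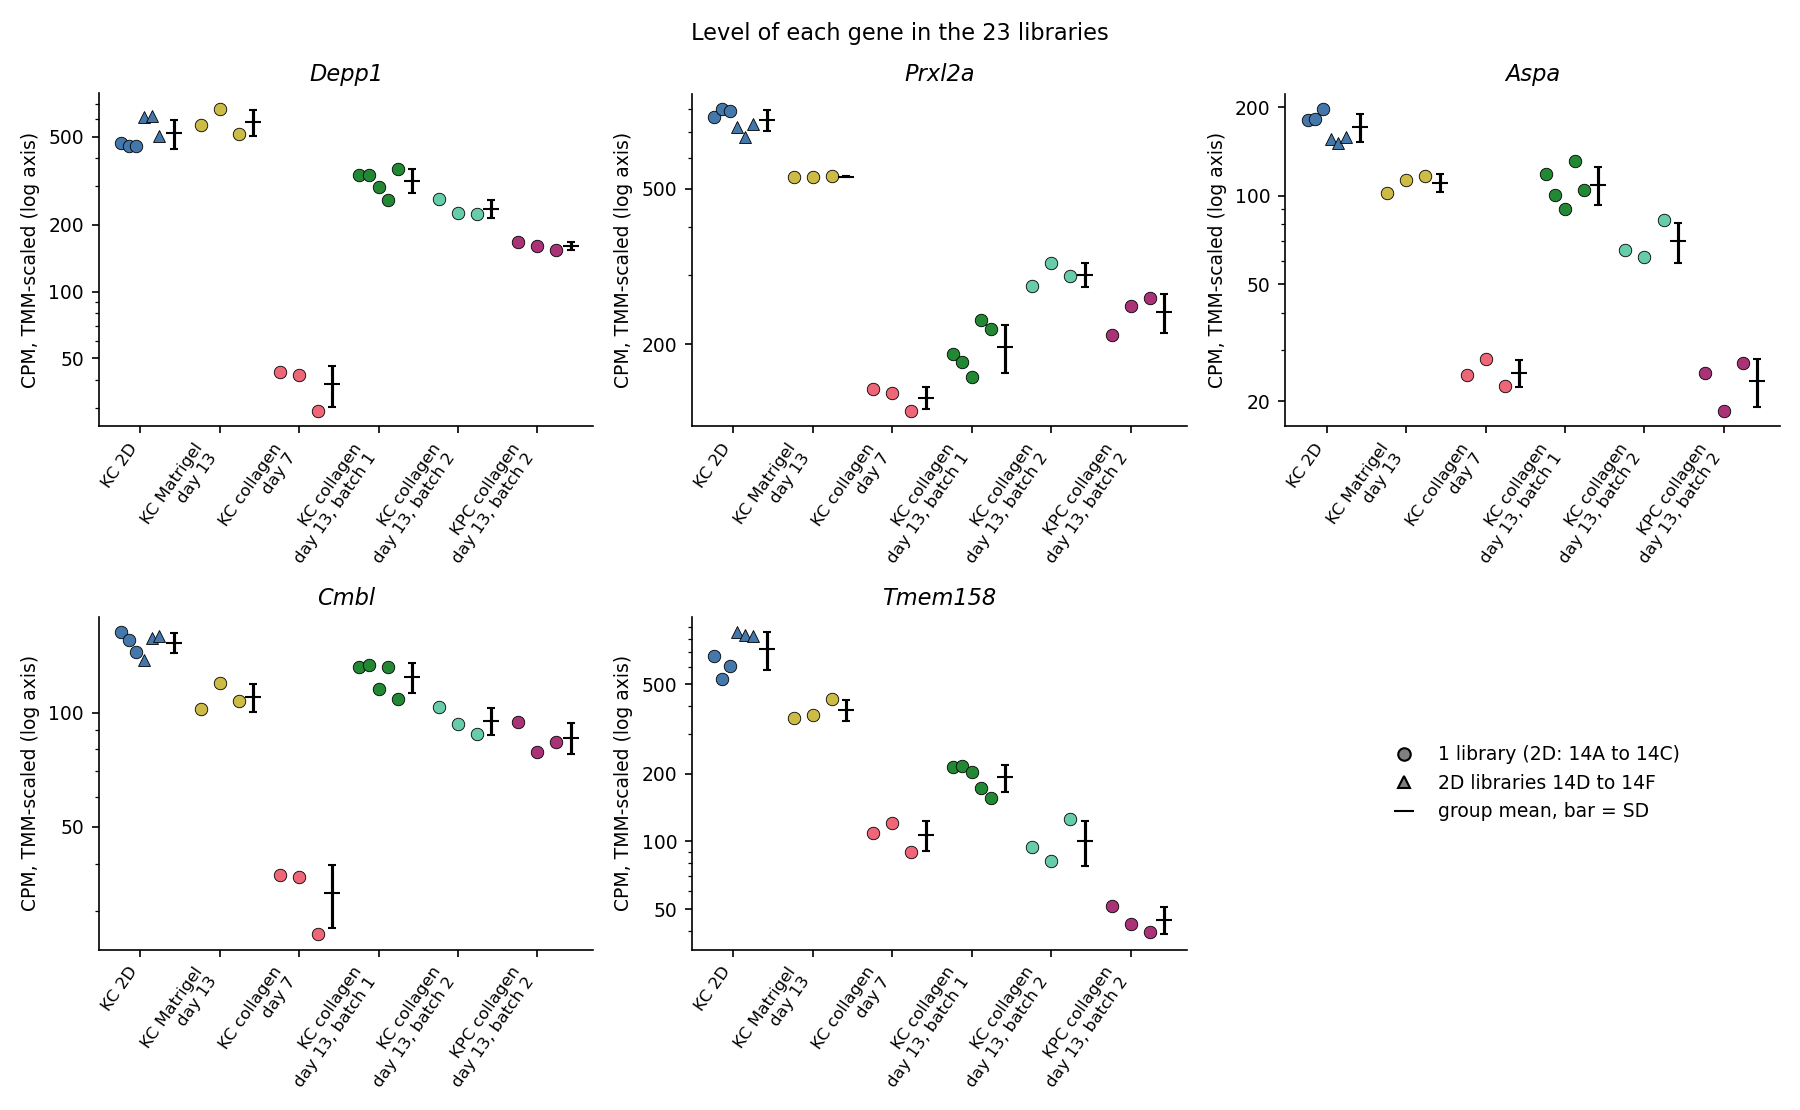
Level of each gene in the 23 libraries, in TMM-scaled CPM on a log axis, by group. Points are libraries (triangles for 2D libraries 14D to 14F), and each cross with its bar is the group mean with its SD. Depp1 in 2D (453 to 621 CPM) overlaps Matrigel (515 to 668 CPM), and collagen at day 7 lies lowest among KC groups for Depp1, Prxl2a, Aspa and Cmbl.

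Depp1 had 2 high groups and 1 very low one. In 2D it measured 469, 455 and 453 CPM in libraries 14A to 14C and 609.6, 621 and 503 CPM in 14D to 14F. In Matrigel the 3 libraries measured 566, 668 and 515 CPM. These groups overlapped, and the Matrigel mean (583 ± 78.0 CPM, SD, n = 3) lay above the 2D mean (518 ± 77.1 CPM, n = 6). In collagen at day 13 the first batch measured 336, 334, 295, 258 and 357 CPM and the second 261, 226 and 223 CPM. KPC organoids measured 167, 159.8 and 154 CPM. Collagen at day 7, with 43.6, 42.2 and 29.0 CPM from 68 to 109 molecules per library, lay below all other groups (mean 38.3 ± 8.08 CPM, SD, n = 3). In order of the means, Depp1 thus ran from Matrigel and 2D, through KC collagen of day 13, where the batches overlapped, to KPC and then day 7. With each library scaled by its size alone, 2D overlapped the first batch of day 13 as well.

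Prxl2a was high in 2D, intermediate in Matrigel and low in all collagen groups. Libraries 14A to 14C measured 764, 801 and 792 CPM and libraries 14D to 14F 718, 679.8 and 732 CPM. The Matrigel libraries measured 536, 537 and 538 CPM, below every 2D library and close to each other. KC collagen of day 13 measured 189, 180.3, 165, 231 and 219 CPM in the first batch and 283, 324 and 299 CPM in the second, which did not overlap. KPC organoids measured 211, 251 and 263 CPM and overlapped only the first KC batch among their neighbours in the order. Collagen at day 7 measured 153, 149.9 and 135 CPM and was lowest. The means ran from 748 ± 46.4 CPM (SD, n = 6) in 2D and 537 ± 0.81 CPM (n = 3) in Matrigel to 146 ± 9.73 CPM (n = 3) at day 7. When libraries were scaled by size alone, 2D and Matrigel overlapped.

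Aspa was highest in 2D and lowest in day 7 and KPC organoids. The 2D libraries measured 181, 182 and 198 CPM in 14A to 14C and 157, 152 and 159 CPM in 14D to 14F. Matrigel, with 103, 113 and 117 CPM, and the first batch of collagen day 13, with 119, 101, 90.4, 131 and 105 CPM, overlapped below them. The second KC batch measured 65.6, 62.1 and 82.6 CPM. Day 7 organoids (24.5, 27.9 and 22.6 CPM) and KPC organoids (24.9, 18.6 and 26.9 CPM) shared the lowest place and overlapped, on 31 to 72 molecules per library. The 2D mean was 172 ± 18.4 CPM (SD, n = 6), the Matrigel mean 111 ± 7.43 CPM (n = 3) and the KPC mean 23.5 ± 4.37 CPM (n = 3). Of the oligodendrocyte markers, Mag was at 0 in every KC library and Mbp measured between 4.30 and 34.5 CPM. The summed markers ran from 5.37 to 16.3 CPM in 2D and from 30.6 to 34.5 CPM in KPC organoids, where Aspa was lowest, and their part in the level of Aspa was not tested.

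Cmbl differed less among the groups of day 13 than between them and day 7. The means of the day 13 groups ran from 85.8 to 124 CPM, and the KC collagen batches did not overlap. In 2D Cmbl measured 163, 155 and 145 CPM in 14A to 14C and 138, 158 and 159.6 CPM in 14D to 14F. The first batch of collagen day 13 measured 132, 133, 115, 132 and 109 CPM. Matrigel measured 102, 119.9 and 107 CPM, the second KC batch 103, 93.4 and 88.0 CPM and KPC organoids 94.5, 79.0 and 83.9 CPM. From the first collagen batch down to KPC each of these groups overlapped the next. Day 7 stood apart at 37.3, 36.8 and 26.0 CPM. Its mean was 33.4 ± 6.37 CPM (SD, n = 3), against 153 ± 9.70 CPM (n = 6) in 2D and 124 ± 11.3 CPM (n = 5) in the first batch of day 13. On the scale of library size alone, 2D overlapped the first collagen batch of day 13.

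Tmem158 was highest in 2D and lowest in KPC organoids. Libraries 14A to 14C measured 671, 527 and 605 CPM and libraries 14D to 14F 855, 829 and 819 CPM. Matrigel measured 354, 366 and 431 CPM, and the first batch of collagen day 13 measured 215, 216, 205, 173 and 157 CPM. Day 7 organoids (109, 121 and 89.5 CPM) overlapped the second KC batch of day 13 (94.0, 81.6 and 125 CPM). KPC organoids were lowest at 51.7, 43.1 and 39.6 CPM. The means were 718 ± 136 CPM (SD, n = 6) in 2D, 384 ± 41.2 CPM (n = 3) in Matrigel and 44.8 ± 6.25 CPM (n = 3) in KPC organoids. The order 2D, Matrigel, first collagen batch, day 7 had no overlap between neighbours. Scaled by library size alone, 2D overlapped Matrigel.

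Every 2D library lay above every organoid library for Prxl2a, Aspa, Cmbl and Tmem158, a pattern shared by 1.38% of tested genes. It is the pattern the genes were chosen for and is no finding. The margin was narrow for some of them: the lowest 2D library measured 138 CPM for Cmbl against 133 CPM in the highest organoid library, and 152 against 131 CPM for Aspa. Just outside, the lowest 2D library of Depp1 measured 453 CPM against 668 CPM in the highest organoid library. None of the 5 genes kept the pattern with library size alone, which 0.772% of tested genes then met. In the fit of all genes, the log2 difference of 2D from day 7 collagen was 3.76 for Depp1, 2.35 for Prxl2a, 2.77 for Aspa, 2.20 for Cmbl and 2.75 for Tmem158. These values placed the 5 genes between rank 29 and rank 223 of 11144 from the highest. The difference of 2D from collagen at day 13 was 1.92 for Prxl2a and 1.90 for Tmem158 but 0.72, 0.64 and 0.30 for Depp1, Aspa and Cmbl, the last at rank 3391. Against Matrigel it was 0.91 for Tmem158, 0.62 for Aspa, 0.48 for both Prxl2a and Cmbl, and -0.17 for Depp1. The 3 differences share the 2D libraries.

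Within 2D the genes differed between libraries 14A to 14C and 14D to 14F, and the direction depended on the scaling for 3 of them. In TMM-scaled log2 CPM, 14D to 14F minus 14A to 14C was 0.32 for Depp1 and 0.48 for Tmem158, where every 14D to 14F library was higher, as in 25.0% of tested genes. It was -0.15 for Prxl2a and -0.26 for Aspa, where every 14D to 14F library was lower, as in 22.5% of tested genes, and -0.03 for Cmbl, where the sets overlapped. The median of all tested genes shifted by 0.10 on this scale. With library size alone the median shifted by 0.53, and all 5 genes were higher in every 14D to 14F library, as 54.0% of tested genes were. On that scale the difference was 0.79 for Depp1, 0.95 for Tmem158, 0.32 for Prxl2a, 0.20 for Aspa and 0.44 for Cmbl. With DESeq2 size factors it was 0.24, 0.39, -0.23, -0.35 and -0.11 in the same order, at a median shift of 0.02. Relative to the median gene, Depp1 and Tmem158 were above it in 14D to 14F and Prxl2a, Aspa and Cmbl below it under all 3 scalings. The sets were told apart by these counts and follow no labelled condition, so the difference has no test here.

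**Figure D2:**
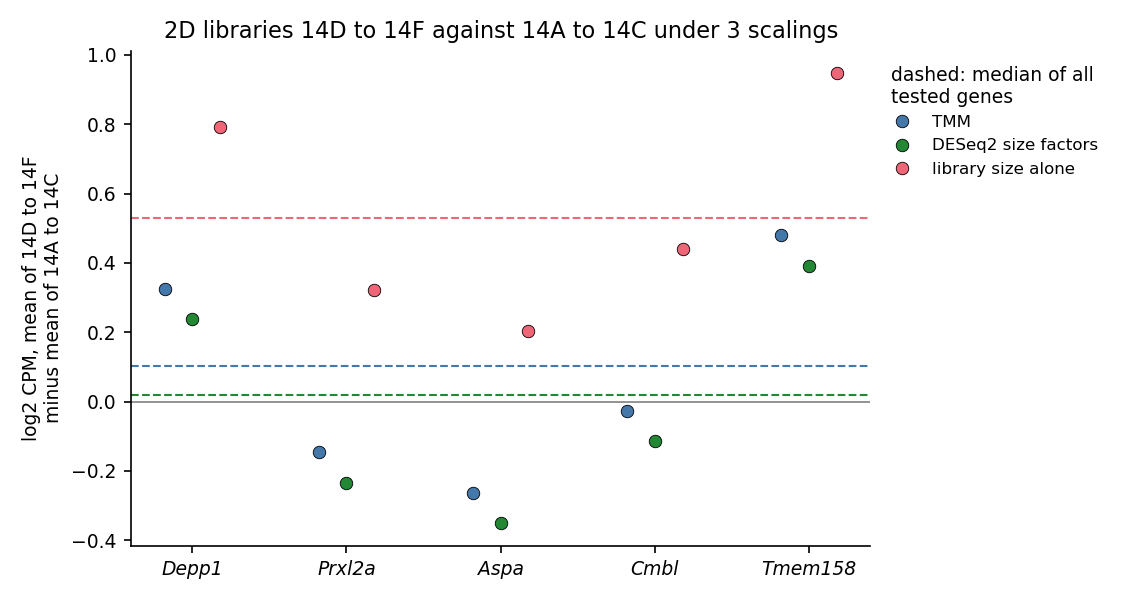
Difference in mean log2 CPM between 2D libraries 14D to 14F and 14A to 14C (y axis) for each gene (x axis) under 3 scalings, 3 libraries per set. Dashed lines give the median of all tested genes under each scaling, 0.10, 0.02 and 0.53 for TMM, DESeq2 size factors and library size alone. Depp1 and Tmem158 lie above, and the other 3 genes below, the line of their own scaling.

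The first tested comparison asked which of the genes differed between the 2 matrices at day 13, where organoids in Matrigel are spherical and those in floating collagen branched. Depp1, Prxl2a and Tmem158 were called higher in Matrigel than in collagen of the same batch, and Aspa and Cmbl were not called. Prxl2a was 2.73-fold higher (log2 fold change 1.45, SE 0.11, edgeR adjusted p = 1.49e-09), Tmem158 1.98-fold (0.99, SE 0.16, adjusted p = 0.000127) and Depp1 1.84-fold (0.88, SE 0.14, adjusted p = 7.54e-05). For Aspa the log2 difference was 0.02 with an interval of 2 SE from -0.24 to 0.28 (adjusted p = 0.963), and for Cmbl it was -0.18 with an interval from -0.41 to 0.05 (adjusted p = 0.408). Thus 3 of 5 genes passed, all higher in Matrigel, against 12.9% of all tested genes called in either direction. That background was 1439 genes, 738 of them higher in Matrigel. It fell to 874 without Matrigel replicate 1, to 959 without Matrigel replicate 3 and to 954 with library size alone. On that last scale 68.6% of calls were higher in Matrigel against 51.3%. The 3 calls were kept under all alternatives tried. Immune markers moved with the matrix: their sum was 30.7 to 36.6 CPM in Matrigel and 12.1 to 22.1 CPM in collagen of the first batch, nearly all from Cd68, with Lyz2 at 0 in both groups and Ptprc at most 1.17 CPM. Their part in the result was not tested.

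The next comparison set day 7 against day 13 in collagen of the first batch, 2 stages of the growth of branched organoids. All 5 genes were called lower at day 7, against 55.1% of tested genes called in either direction and 27.1% called lower. Depp1 fell by 3.05 on the log2 scale, 8.25-fold (SE 0.17, edgeR adjusted p = 3.98e-13). Aspa was 4.35-fold lower (-2.12, SE 0.15, adjusted p = 3.84e-11) and Cmbl 3.72-fold lower (-1.90, SE 0.13, adjusted p = 1.6e-11). Tmem158 was 1.81-fold lower (-0.85, SE 0.17, adjusted p = 0.000182) and Prxl2a 1.35-fold lower (-0.43, SE 0.12, adjusted p = 0.0036). The median over the 5 genes was -1.90 and over all tested genes 0.01. For Depp1, Prxl2a, Aspa and Cmbl every day 7 library lay below every other KC library, as for 7.72% of tested genes, and for Tmem158 day 7 overlapped the second batch of day 13. In bulk RNA, fewer cells of a type and less RNA per cell cannot be told apart. Among the epithelial markers Epcam moved the same way, at 4.65 to 7.85 CPM at day 7 and 45.5 to 75.1 CPM at day 13. So did Sox9, at 84.0 to 92.2 CPM and 130 to 255 CPM. Krt7, Krt8 and Krt18 were higher at day 7, where Krt8 measured 2802 to 3152 CPM against 1864 to 2369 CPM at day 13. Krt19 and Cdh1 overlapped between the days. Immune markers (4 of 5 in the table, Lyz2 at 0 in both groups) summed to 3.41 to 5.88 CPM at day 7 and 12.1 to 22.1 CPM at day 13, and acinar markers (3 of 5 in the table, Ctrb1 at 0 in both) to 2.98 to 4.41 CPM and 7.36 to 11.5 CPM. The immune sum came mostly from Cd68 and the acinar sum mostly from Cela1. The part of these markers in the result was not tested.

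Matrigel at day 13 and collagen at day 7 differ in matrix and in time. All 5 genes were higher in Matrigel, against 50.6% of tested genes called. Depp1 was 15.2-fold higher (log2 fold change 3.93, SE 0.18, edgeR adjusted p = 4e-14). The others were between 3.29-fold (Cmbl) and 4.41-fold (Aspa) higher, with adjusted p-values from 3.74e-11 to 2.38e-08. For Depp1 the counts were 884 to 1533 molecules per Matrigel library and 68 to 109 per day 7 library.

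**Figure D3:**
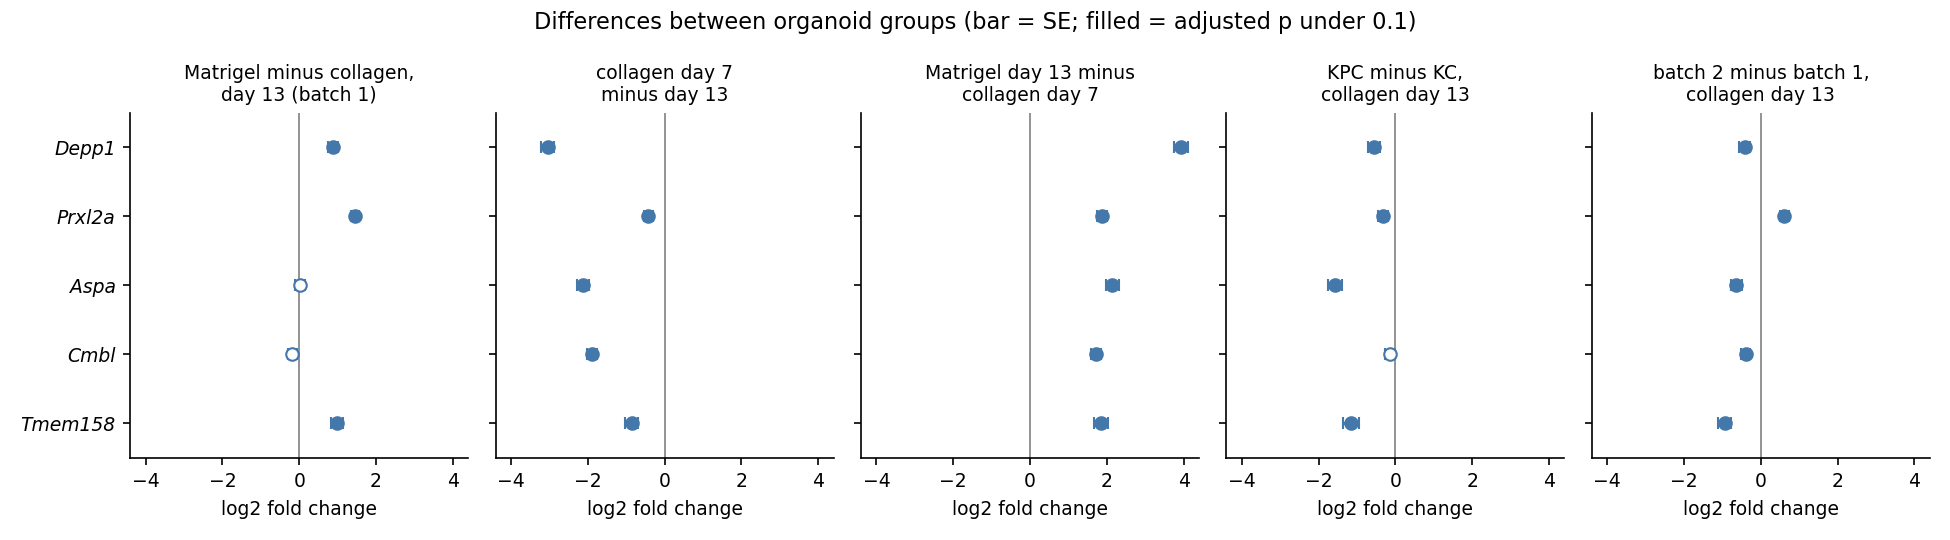
Log2 fold change of each gene (x axis) in the 5 comparisons between organoid groups, with SE bars from the fit of all 23 libraries. Filled points have an adjusted p under 0.1. All 5 genes lie left of 0 at day 7 against day 13, with Depp1 at -3.05, and Prxl2a lies right of 0 (0.62) where the second batch is compared with the first while the other 4 lie left.

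In the second batch, KPC organoids were compared with KC organoids of the same day and matrix. Aspa was 2.98-fold lower in KPC (log2 fold change -1.57, SE 0.18, edgeR adjusted p = 7.34e-07), Tmem158 2.24-fold lower (-1.17, SE 0.21, adjusted p = 0.000234) and Depp1 1.48-fold lower (-0.56, SE 0.16, adjusted p = 0.0188). Prxl2a was 1.25-fold lower and stood at the threshold (-0.32, SE 0.13, adjusted p = 0.0999). Its call was lost under 10 of 14 alternatives, with adjusted p-values up to 0.441, and with the KC libraries of both batches as control its difference was 0.04 (adjusted p = 0.9). Cmbl overlapped between the lines (-0.15, interval of 2 SE from -0.42 to 0.12, adjusted p = 0.537). So 4 of 5 genes passed, all lower in KPC, against 19.9% of tested genes called in either direction. Of those 2223 genes 1155 were lower in KPC. With library size alone the call of Depp1 was lost (-0.44, adjusted p = 0.223), and 67.9% of all calls were higher in KPC against 48.0%. Immune markers, with Lyz2 at 0 in both groups, summed to 5.99 to 11.6 CPM in KPC and 18.7 to 21.2 CPM in KC organoids of this batch, and oligodendrocyte markers to 30.6 to 34.5 CPM and 21.2 to 26.7 CPM. The immune sum came mostly from Cd68 and the oligodendrocyte sum mostly from Mbp. The part of these markers in the result was not tested.

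The batches of KC collagen organoids at day 13 differed in all 5 genes, against 37.3% of tested genes. Prxl2a was 1.53-fold higher in the second batch (log2 fold change 0.62, SE 0.11, edgeR adjusted p = 0.000176). Tmem158 was 1.92-fold lower (-0.94, SE 0.18, adjusted p = 0.000194), Aspa 1.56-fold lower (-0.64, SE 0.14, adjusted p = 0.0011), Cmbl 1.31-fold lower (-0.39, SE 0.12, adjusted p = 0.0151) and Depp1 1.34-fold lower (-0.42, SE 0.14, adjusted p = 0.0292). Depp1 overlapped between batches and its call was lost without the second batch's replicate 2 (adjusted p = 0.111) or replicate 3 (adjusted p = 0.114), and that of Cmbl when every gene with counts was kept (adjusted p = 0.115). Between nominally equal organoids, the batch difference of Tmem158 was of the size of its difference between Matrigel and collagen (0.99). No group of another culture was repeated in the second batch, so within-batch values exist only for the comparisons given. Of all calls 35.2% were higher in the second batch with library size alone, against 51.6%.

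For each gene a list of related genes was examined in the 3 comparisons of 2D with organoids, none of which contains the 5 genes. The background was 26.4% of tested genes higher and 24.8% lower in 2D against day 7, 26.3% and 23.3% against day 13, and 21.9% and 20.1% against Matrigel. In all 3 comparisons, which share the 2D libraries, 7.86% of tested genes were higher and 3.95% lower. With library size alone the share of calls that were higher in 2D fell from 51.6 to 37.5%, from 53.1 to 31.9% and from 52.2 to 23.3%. The lists were chosen with earlier results of these data known.

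FOXO factors and genes that FOXO factors induce, the pathway of Depp1, were more often higher than lower in 2D against day 7, and more often lower than higher against both groups of day 13. Of 24 tested genes 13 were higher and 2 lower in 2D than at day 7, but 3 were higher and 9 lower in 2D than at day 13, and 1 higher and 9 lower than in Matrigel. Between day 7 and day 13 in collagen 15 were lower and 2 higher at day 7, where 27.1% of all tested genes were lower and 28.1% higher. The list's median log2 fold changes were 0.47, -0.21 and -0.33 in the 3 comparisons of 2D and -0.65 at day 7 against day 13, and the medians of all tested genes lay between 0.01 and 0.02. With libraries 14A to 14C alone 6 were higher and 10 lower against day 13, and 4 higher and 9 lower against Matrigel. By library size alone 11, 3 and 1 were higher and 4, 12 and 15 lower against day 7, day 13 and Matrigel. Map1lc3b, the autophagosome marker LC3B, was higher in 2D throughout (log2 fold changes 1.10, 0.65 and 0.88 against day 7, day 13 and Matrigel, edgeR adjusted p at most 0.000579). The size depended on the 2D libraries: 1.43, 0.98 and 1.21 with 14A to 14C alone, and 0.71, 0.20 and 0.43 with 14D to 14F alone. With 14D to 14F the edgeR adjusted p against day 13 was 0.0678. Foxo1, the factor itself, was lower in 2D throughout (-0.66, -0.85 and -0.73, adjusted p at most 0.000708), at 22.4 ± 5.06 CPM (n = 6) against means of 36.2 to 41.1 CPM in the 3 organoid groups. Klf6, a zinc finger factor, was also lower (-1.07, -0.59 and -0.36), the last of these not called with libraries 14A to 14C alone (-0.18).

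Peroxiredoxins, thioredoxins and glutathione peroxidases, the family of Prxl2a, were listed together with thioredoxin reductases, glutaredoxins, Srxn1 and Sod1. Genes of this list were more often higher than lower in 2D. Of 23 tested genes 9, 14 and 13 were higher and 4, 2 and 2 lower against day 7, day 13 and Matrigel, and 7 were higher in all 3. The list's medians were 0.14, 0.50 and 0.48. With libraries 14D to 14F alone 6 were higher and 9 lower against day 7, so that the balance in that comparison turned, while 8 were higher against day 13 and 8 against Matrigel. The count over all 3 comparisons rested in part on libraries 14A to 14C: with those 3 libraries alone 10 genes were higher in all 3 comparisons, with 14D to 14F alone 2 were higher and 1 lower, and with library size alone 3 were higher. Prxl2b, a close relative of Prxl2a, showed log2 differences of 3.05, 1.10 and 0.91, on a mean of 14.5 CPM in 2D and 1.60 CPM at day 7, and against Matrigel it was not called with 14D to 14F alone (0.49) or with library size alone (0.63). Gpx4, which reduces lipid peroxides, showed 0.76, 1.34 and 1.41 over all 2D libraries but -0.38 against day 7 with 14D to 14F alone, where it was called lower (edgeR adjusted p = 0.015). With those libraries Gpx4 was not called against day 13 (0.15) or Matrigel (0.23). Txn1, the main thioredoxin, was higher in 2D than at day 13 (0.63) and than in Matrigel (0.75) and lower than at day 7 (-0.37). Txn1 was picked out after its values were seen.

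Of 11 tested genes of N-acetylaspartate, aspartate and acetate handling, 3, 3 and 2 were higher and 4, 3 and 3 lower against day 7, day 13 and Matrigel, and none was called the same way in all 3 by edgeR or DESeq2, though 1 was higher in all 3 with 14D to 14F alone. The list had medians of -0.18, 0.04 and 0.06. Nat8l, the enzyme that makes N-acetylaspartate, the substrate of Aspa, had too few counts to be tested. Of 15 tested esterases and related hydrolases 4, 2 and 4 were higher and 2, 8 and 5 lower, and 11 were lower at day 7 than at day 13, with medians of 0.59, -0.52 and -0.19 in the comparisons of 2D. Pon3, a lactonase, was higher in all 3 comparisons (0.85, 0.37 and 0.47), the last 2 at adjusted p-values of 0.0887 and 0.0773, and neither was called with DESeq2, with library size alone or with 14D to 14F alone. Of 26 tested Ras-MAPK and Ras-induced senescence genes 4, 11 and 4 were higher and 15, 8 and 5 lower, with medians of -0.41, 0.13 and 0.03. Over all 3 comparisons 2 were higher and 3 lower. By library size alone 3, 6 and 0 were higher and 16, 8 and 9 lower. Igfbp7, a secreted senescence factor, was higher throughout (0.90, 1.60 and 0.41), and so was Etv5, a MAPK-induced factor (0.94, 0.76 and 0.49), though with libraries 14A to 14C alone Etv5 was called in none of the 3. With library size alone the Matrigel difference was not called for Igfbp7 (0.11) or Etv5 (0.24). Cdkn1a, the cell cycle inhibitor p21, was lower throughout (-0.41, -0.90 and -0.93, edgeR adjusted p at most 0.0135).

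**Figure D4:**
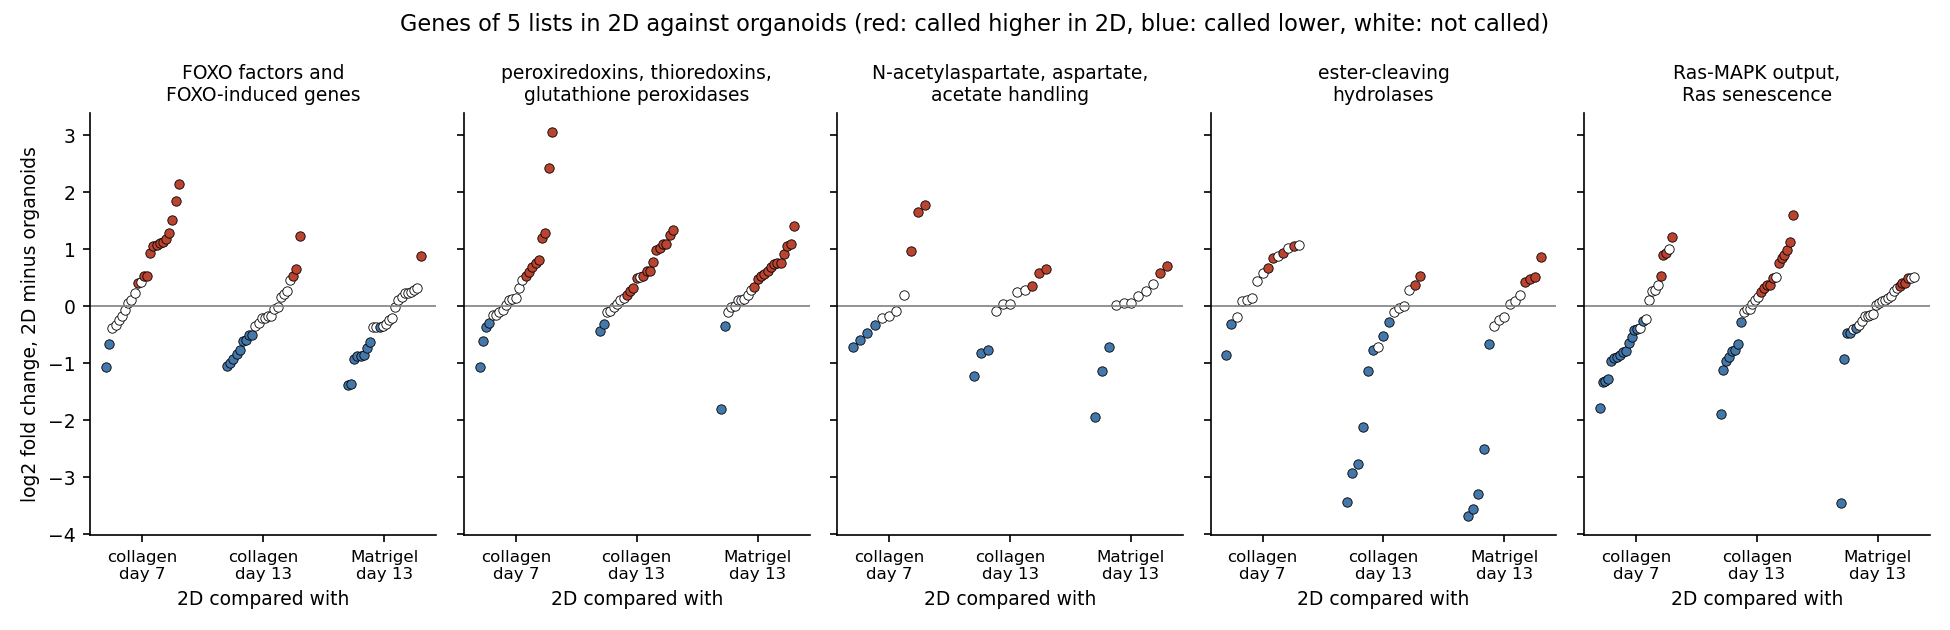
Log2 fold change of every tested gene of the 5 lists (y axis) in 2D against collagen day 7, collagen day 13 and Matrigel (x axis). Red points were called higher in 2D, blue points lower, white points were not called. Of the 24 FOXO genes 13 are red and 2 blue against day 7, and 1 is red and 9 are blue against Matrigel.

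Genes of like pattern were sought by the Pearson correlation of log2 CPM over the 23 libraries, which share groups, batch and depth, so the values are descriptions. Depp1 was closest to Gstt1, a glutathione S-transferase (r = 0.95), Lbp, the lipopolysaccharide-binding protein (0.93), and Atp1b1, a subunit of the sodium pump (0.93). Gstt1 averaged 48.7 CPM in 2D, 59.1 in Matrigel and 3.94 at day 7. Prxl2a was closest to Vcam1, an adhesion molecule (0.94), Cxcl16, a chemokine (0.94), and Pdzk1ip1 (0.90), and Vcam1 averaged 93.0 CPM in 2D, 68.7 in Matrigel and 22.0 to 27.2 CPM in the collagen groups. Aspa was closest to Spp1, osteopontin (0.95), Ctsh, a lysosomal protease (0.94), and Ifitm2 (0.93). Spp1 averaged 14333 CPM in 2D, 4675 at day 7 and 2866 in KPC organoids. Cmbl was closest to Hbp1, a transcription factor (0.94), B2m, the light chain of class I histocompatibility molecules (0.94), and Ergic3 (0.93). Tmem158 was closest to Ifitm2 (0.96) and Stc2, a secreted glycoprotein (0.94). Stc2 averaged 76.7 CPM in 2D, 51.3 in Matrigel, 15.5 at day 7 and 4.69 in KPC organoids. Among themselves the 5 genes correlated between 0.61 (Cmbl and Tmem158) and 0.94 (Depp1 and Cmbl).

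Chromosomal neighbours were also measured. Of the 20 nearest genes, 2 on each side of each of the 5, 10 passed the filter on low counts. Against day 7, 4 of the 10 were higher in 2D, against 26.4% of tested genes. Against day 13, 4 were higher and 1 lower (26.3% and 23.3% of tested genes), and against Matrigel 1 was higher and 3 lower (21.9% and 20.1%). Between day 7 and day 13 in collagen 2 were higher and 5 lower at day 7 (28.1% and 27.1%). Cct5, a chaperonin subunit 681 bases from Cmbl, averaged 529.6 CPM in 2D and 589.6 CPM at day 7, where Cmbl was lowest. Rassf4, which encloses Depp1 on the other strand, averaged 0.745 CPM in 2D, 3.90 in Matrigel, 0.163 at day 7, 2.57 and 16.3 in the first and second batch of KC collagen day 13, and 2.92 in KPC organoids. Like Depp1 it was called lower at day 7 than at day 13 (log2 fold change -3.60, edgeR adjusted p = 0.00764), but near the floor of detection. Its day 7 mean lay below the 1.16 to 1.47 CPM that 3 molecules make there, and its SD in the first batch of day 13 was 2.20 CPM. Unlike Depp1, Rassf4 was higher in the second batch's mean than in 2D.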

How the data were processed

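The authors made UMI count tables with the Drop-seq pipeline from 3' bulk libraries aligned to GRCm38 with GENCODE M25 annotation, and deposited whole-number counts per gene without normalization. Every column was matched to a sample by its title. Libraries held 1221451 to 2471058 counts, and a count of 0 allows up to 3 molecules. Replicate pairs of a group differed by more than sampling noise (37 pairs, chi-square per degree of freedom 1.25 to 30.6), so none was merged.

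Genes were filtered with filterByExpr, scaled by TMM and fitted over all 23 libraries and 6 groups with edgeR 4.0.16 (limma 3.58.1, R 4.3.3), using the quasi-likelihood F-test with Benjamini-Hochberg adjustment over 11144 genes and a call at 0.1, the threshold the study used with DESeq2. Printed levels are TMM-scaled CPM, log2 CPM used a prior count of 2, and fold changes are those of the fit. The fit was tested on simulated data first. Alternatives were DESeq2 1.42.0, its size factors, library size alone, no filter, a call at 0.05, fits that held only the groups compared, a replicate block, KC libraries of both batches as control for KPC, each replicate left out, and the 2D libraries 14A to 14C or 14D to 14F alone. For the gene lists, the last was added after seeing the data. Replicate numbers showed no pairing of the libraries.

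The members and lists were chosen with earlier results of these data known. Named list genes were those called the same way in all 3 comparisons of 2D, at most 2 per direction and list, and genes of like pattern were the 3 with the highest correlation for each member. Some genes that these rules name, and the full genotypes, are not reported here. Positions came from GENCODE M21 and promoters from RefSeq (GRCm38.p6). Python used numpy 2.4.6, pandas 2.3.3, scipy 1.17.1 and matplotlib 3.10.9.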

Additional observations from a re-analysis of the deposited data

How the results depend on the processing

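Of 370 values of the 5 genes in the comparisons between organoid groups under an alternative, 352 kept their direction and their side of the threshold, 13 lost a call, 1 gained one and 4 changed sign. Values are log2 fold changes with edgeR adjusted p-values, and the causes were not tested. Every alternative kept the calls of Depp1, Prxl2a and Tmem158 between Matrigel and collagen, and all calls of the 5 genes at day 7 against day 13 and in Matrigel against day 7. In KPC against KC, Prxl2a (-0.32, adjusted p = 0.0999) gave -0.20 (0.441) with library size alone, -0.35 (0.285) without a filter, -0.32 (0.0999) at a threshold of 0.05, and 0.037 (0.9) with the 8 KC libraries of both batches. Leaving out each replicate gave -0.39 to -0.23, with 5 of 6 calls lost. Depp1 gave -0.44 (0.223) with library size alone, and Cmbl -0.40 (0.0422) with the 8 KC libraries. Between batches, Cmbl gave -0.37 (0.115) without a filter, and Depp1 -0.49 to -0.37 without single replicates. Aspa in Matrigel against collagen ran from -0.041 to 0.095 without single replicates and was never called. Gpx4 in 2D against day 7 gave -0.38 with 14D to 14F alone.

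The genes called in Matrigel against collagen (1439) were 954 with library size alone and 874 to 1444 without single replicates, 874 without Matrigel replicate 1 and 959 without Matrigel replicate 3. In KPC against KC they were 2223, and 3431 in a fit of the compared groups alone. With library size alone the median log2 fold change of all genes was -0.14, -0.20 and -0.25 in 2D against day 7, day 13 and Matrigel (0.02, 0.01 and 0.02 with TMM), 0.13 in KPC (0.01), -0.18 in the second batch (-0.05) and 0.10 in Matrigel against day 7 (-0.01).

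Same-numbered replicates deviated together in few cases: 26 correlations ran from -0.119 to 0.188, and 2 were over 0.1. The numbers thus showed no pairing of the libraries, though so few libraries per group cannot exclude one. With a replicate block 1560, 6088, 5911, 2437 and 4804 genes were called in Matrigel against collagen, day 7 against day 13, Matrigel against day 7, KPC against KC and the second against the first batch, each within 1.5 times the number without it. The block changed 1 call of the 5 genes, Prxl2a in KPC against KC (-0.32, adjusted p = 0.109).

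Depth limited the low values most: Aspa rested on 31 molecules in its lowest library and Cmbl on 61. Counting intervals would cover counting error only.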
